A study of Homo sapiens with 2 samples.

Results

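Messenger RNA of 52 genes that act in G2 and mitosis was followed in single UMUC3 cells, a human bladder carcinoma line, grown for 14 days in the bladders of nude mice. The members belong to a list widely used to score G2 and M phase in single-cell data, and their rows were taken by symbol from the 33538 human genes counted. All 52 were found, and all 52 reached 10 CPM (UMIs of a gene per library, scaled to a common total) in at least 1 of the 2 libraries. In the first library GANAB had been knocked down, the gene of the catalytic subunit of glucosidase II, which trims glucose from new N-glycans in the endoplasmic reticulum. The second came from cells labelled as control, of the same line, host and growth time. The agent behind the knockdown, the number of clones and the number of mice per library are not stated in the labels. With 1 library per group no difference has a replicate check and no test was possible, so "higher" and "lower" compare these 2 libraries and every interval covers counting error only.

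A cell that leaves S phase builds the products of these genes together and destroys many of them again as it exits mitosis. CDK1 with cyclin B drives entry into mitosis, and a ubiquitin ligase that CDC20 activates later opens the way to anaphase. Aurora kinases and kinesins assemble the spindle, kinetochores tie chromosomes to it, condensins compact the chromosomes, and a contractile ring splits the cell. The messages are made from late S phase to mitosis under factors such as FOXM1, MYBL2 and the MuvB complex, so the level in a population depends on how many cells are in that window and on how much each of them holds.

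Promoters show one feature that the members share. MuvB complexes bind a short element, the cell cycle genes homology region, often written TTTGAA, and NF-Y binds CCAAT. Letters were searched on both strands of the RefSeq promoter windows of GRCh38.p14, 250 bases before to 50 after each gene's start, which were matched for 43 of the 52 members. TTTGAA (or its reverse complement, TTCAAA) stood in 30 of the 43 windows, 69.8%, against 15.4% of all 27305 windows. TTCGAA, a variant of the element, stood in 3 (6.98%, against 1.45%), and CCAAT (or ATTGG) in 31 (72.1%, against 35.7%). TTTGAA or TTCGAA together with CCAAT stood in 27 (62.8%, against 6.58%). The feature is not particular to the members. In 26 windows of other mitotic genes, used below, TTTGAA stood in 61.5%, CCAAT in 73.1% and either element with CCAAT in 50%. A match is a run of letters, and binding was not measured. The windows below belong to the members with the lowest and highest ratios of knockdown over control among cells high in other mitotic genes (KIF2C and NDC80, then CKS2 and TOP2A; named members with a window only), and to CDK1 with its partner CCNB2. Capitals mark the searched letters, none of the printed matches overlap, and each window is read 5′ to 3′ on the gene's strand: KIF2C chr1:44739587-44739886 (plus), NDC80 chr18:2571307-2571606 (plus), CKS2 chr9:89310945-89311244 (plus), TOP2A chr17:40417847-40418146 (minus), CDK1 chr10:60778081-60778380 (plus) and CCNB2 chr15:59104896-59105195 (plus).
KIF2C: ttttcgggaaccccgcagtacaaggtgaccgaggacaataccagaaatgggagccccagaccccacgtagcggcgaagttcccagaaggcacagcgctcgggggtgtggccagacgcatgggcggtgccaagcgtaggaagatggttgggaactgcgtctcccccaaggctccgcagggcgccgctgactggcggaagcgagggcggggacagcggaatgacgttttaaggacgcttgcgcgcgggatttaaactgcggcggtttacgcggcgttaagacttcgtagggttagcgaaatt
NDC80: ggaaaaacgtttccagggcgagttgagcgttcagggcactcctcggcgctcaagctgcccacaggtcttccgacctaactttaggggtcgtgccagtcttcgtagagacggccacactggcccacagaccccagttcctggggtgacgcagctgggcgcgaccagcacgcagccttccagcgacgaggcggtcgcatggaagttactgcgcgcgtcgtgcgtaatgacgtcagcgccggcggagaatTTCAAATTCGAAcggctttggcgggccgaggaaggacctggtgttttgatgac
CKS2: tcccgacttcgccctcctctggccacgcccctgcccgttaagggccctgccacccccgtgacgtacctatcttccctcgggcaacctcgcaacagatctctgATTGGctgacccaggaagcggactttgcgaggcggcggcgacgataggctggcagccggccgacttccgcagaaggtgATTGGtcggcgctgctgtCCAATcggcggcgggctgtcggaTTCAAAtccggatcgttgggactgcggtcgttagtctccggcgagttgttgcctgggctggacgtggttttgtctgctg
TOP2A: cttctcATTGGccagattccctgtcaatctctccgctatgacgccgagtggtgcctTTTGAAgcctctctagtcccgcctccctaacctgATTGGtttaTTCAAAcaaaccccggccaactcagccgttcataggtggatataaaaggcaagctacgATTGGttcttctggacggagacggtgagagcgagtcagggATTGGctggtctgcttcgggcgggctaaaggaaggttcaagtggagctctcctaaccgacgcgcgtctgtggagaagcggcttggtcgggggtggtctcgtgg
CDK1: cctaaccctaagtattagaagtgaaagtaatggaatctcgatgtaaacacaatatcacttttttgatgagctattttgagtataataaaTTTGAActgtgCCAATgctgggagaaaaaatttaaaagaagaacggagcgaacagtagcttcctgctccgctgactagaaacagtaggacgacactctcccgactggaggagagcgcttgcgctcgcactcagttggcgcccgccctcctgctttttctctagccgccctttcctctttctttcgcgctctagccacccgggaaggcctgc
CCNB2: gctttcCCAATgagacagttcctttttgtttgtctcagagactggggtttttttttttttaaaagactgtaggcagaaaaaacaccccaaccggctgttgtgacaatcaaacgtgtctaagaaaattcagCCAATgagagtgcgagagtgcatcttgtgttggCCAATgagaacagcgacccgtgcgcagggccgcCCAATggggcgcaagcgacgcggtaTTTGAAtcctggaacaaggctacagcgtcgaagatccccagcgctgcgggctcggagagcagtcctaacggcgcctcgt
CCNB2 holds CCAAT at positions -244, -120, -87 and -54 and TTTGAA at -29, counted from the gene start. CKS2 has TTCAAA at the same place, -29, with CCAAT in either reading at -148, -70 and -52. NDC80 has TTCAAA at -3 and TTCGAA at 4, with no CCAAT, and KIF2C has none of these motifs. The 32 members with either form of the element had a median log2 ratio of -0.42 over all cells, and the 11 matched members without it had -0.20.

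Barcodes with at least 15000 unique molecular identifiers (UMIs) and at most 20% mitochondrial UMIs were kept as cells. There were 2672 knockdown cells with a median of 40933 UMIs and 5630 genes, and 4385 control cells with 44046 UMIs and 5904 genes. The libraries shared 4 cell barcodes. GANAB (ENSG00000089597, GRCh38 chr11:62624826-62646726) stood at 42.3 CPM in knockdown and 127 CPM in control cells, a log2 ratio of -1.58. Of 7 markers of the line, 5 reached 10 CPM, and VIM, KRT18 and KRT8 stood at 5700, 273 and 195 CPM in knockdown and at 3550, 202 and 155 CPM in control cells, while EPCAM stood at 0.113 CPM in knockdown and 0.00467 CPM in control cells. The 6 fibroblast markers summed to 10.7 CPM in knockdown and 14.8 CPM in control cells, with DCN and LUM at 0 in both. The 7 leukocyte markers summed to 25.1 CPM in knockdown and 27.3 CPM in control cells, nearly all of it CD68, with CD3E and NKG7 at 0. Endothelial, red cell and muscle markers summed to 0.324, 0.595 and 12.7 CPM in knockdown cells and to 0.103, 1.21 and 11.3 CPM in control cells.

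Summed over all cells, most members were lower in the knockdown library, by little. Knockdown over control, 43 members had a log2 ratio below 0 and 9 above 0, with a median of -0.42, while the median over the 7872 genes at 10 CPM or more was -0.07. A ratio of at least 1.5-fold whose 95% counting interval leaves out 1 is a rule of size. By it 9 members were lower, where 10.4% of all genes were lower, and 1 was higher, where 7.69% of all genes were higher. The 9 were KIF2C, CDC20, NDC80, NCAPD2, BIRC5, NUF2, TUBB4B, TTK and AURKA, and the 1 was CBX5. This count depended on the largest cells and on how cells are weighted. Without cells above 100000 UMIs, 33 members were lower, where 13.1% of all genes were, and the median was -0.74. With each cell weighted equally 28 were at least 1.5-fold lower, where 11.9% of all genes were, and the median was -0.61. The gate-high share of UMIs is a measure from other mitotic genes, given below. Setting it to the control's value in both libraries left 0 members lower, where 8.7% of all genes were.

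Among CDK1 and its partners no member passed the size rule, where 10.4% of all genes were lower and 7.69% higher, and 4 of 5 were below 0. CDK1, the kinase itself, stood at 47.6 CPM in knockdown and 67.6 CPM in control cells (log2 -0.51, interval -0.55 to -0.46). Its cyclin, CCNB2, stood at 53 CPM in knockdown and 71.6 CPM in control cells. CDC25C, the phosphatase that activates CDK1, stood at 8.81 CPM in knockdown and 12.9 CPM in control cells. The small subunits CKS1B and CKS2, which help the kinase find its substrates, went opposite ways. CKS1B had 195 CPM in knockdown and 240 CPM in control cells (-0.30). CKS2 had 411 CPM in knockdown and 326 CPM in control cells (0.34, 0.32 to 0.35).

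Of 4 members that act with ubiquitin ligases, CDC20 passed the rule as lower, where 10.4% of all genes were lower. CDC20, which activates the anaphase-promoting complex, stood at 70.2 CPM in knockdown and 123 CPM in control cells (-0.80, -0.84 to -0.77). UBE2C, the ubiquitin-conjugating enzyme of that complex, stood at 445 CPM in knockdown and 636 CPM in control cells (-0.51), just short of the rule. CDCA3, a trigger of WEE1 destruction, stood at 36.4 CPM in knockdown and 48.7 CPM in control cells. G2E3, a ubiquitin ligase, had nearly one level, 29.4 CPM in knockdown and 28.8 CPM in control cells.

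The 16 spindle members had a median log2 ratio of -0.28, and 2 passed the rule, both lower, where 10.4% of all genes were lower. Without cells above 100000 UMIs 8 of the 16 were lower, where 13.1% of all genes were. TUBB4B, a beta tubulin whose reads can be shared with other tubulin genes, had 191 CPM in knockdown and 295 CPM in control cells (-0.63). AURKA, the kinase of spindle poles, had 30.1 CPM in knockdown and 45.6 CPM in control cells (-0.60, -0.65 to -0.55). Its activator TPX2 had 95 CPM in knockdown and 115 CPM in control cells. Of the 16, 13 were below 0 and 3 above. GTSE1 had -0.52, HMMR, NEK2 and CKAP2L each had -0.48, and CKAP5 had -0.43. Some others were close to level. NUSAP1, which bundles spindle microtubules, had 59.8 CPM in knockdown and 62.1 CPM in control cells (-0.06, a sign that turns when libraries are scaled by the median gene ratio). JPT1 had 265 CPM in knockdown and 264 CPM in control cells. CKAP2 and GAS2L3, which bind the cytoskeleton, had 0.11 and 0.13, but 0.01 and -0.12 without cells above 100000 UMIs.

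All 12 members of the centromere, kinetochore and checkpoint group were below 0, with a median of -0.52. The rule took 5 of the 12 as lower, of 9 among all members, where 10.4% of all genes were lower. Without cells above 100000 UMIs it took 11 of the 12 and 33 of all 52 members, where 13.1% of all genes were lower. KIF2C (GRCh38 chr1:44739818-44767767), a kinesin that takes microtubules apart at kinetochores, had 14 CPM in knockdown and 27.2 CPM in control cells (-0.96, -1.04 to -0.89). NDC80 and NUF2, which form one coupler of kinetochore and microtubule, had 14.5 and 29.4 CPM in knockdown cells and 24.5 and 46.4 CPM in control cells. BIRC5, or survivin, of the chromosomal passenger complex, had 70.3 CPM in knockdown and 112 CPM in control cells (-0.67). Its partners in that complex were nearer to 0, with AURKB at 26.4 CPM in knockdown and 34.6 CPM in control cells and CDCA8 at 17 CPM in knockdown and 22.2 CPM in control cells. TTK, the checkpoint kinase also called MPS1, had 18.5 CPM in knockdown and 28.4 CPM in control cells (-0.62). The large kinetochore protein CENPF had 97.1 CPM in knockdown and 139 CPM in control cells, below the rule at -0.52.

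The 11 members that act on chromosomes, chromatin or the nuclear envelope were mixed in sign, with 7 below 0 and 4 above. Without cells above 100000 UMIs 10 were below 0 and 1, CBX5, above. NCAPD2, a condensin subunit, had 42.7 CPM in knockdown and 69.3 CPM in control cells (-0.70), and SMC4, the ATPase of condensin, had 128 CPM in knockdown and 182 CPM in control cells (-0.51). HMGB2, a DNA-bending protein, had 273 CPM in knockdown and 393 CPM in control cells. TOP2A, which untangles sister chromatids, had 151 CPM in knockdown and 143 CPM in control cells (0.08, or -0.15 with each thinned cell weighted equally). MKI67, the proliferation marker, had 89.5 CPM in knockdown and 108 CPM in control cells. CBX5 (GRCh38 chr12:54230940-54280133), the heterochromatin protein HP1 alpha, had 142 CPM in knockdown and 94.1 CPM in control cells (0.60, 0.57 to 0.63). The 4 cytokinesis members lay between -0.51 for ANLN and -0.13 for KIF20B, with ECT2, which activates RhoA at the cleavage site, at 52 CPM in knockdown and 62.2 CPM in control cells.

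**Figure D1:**
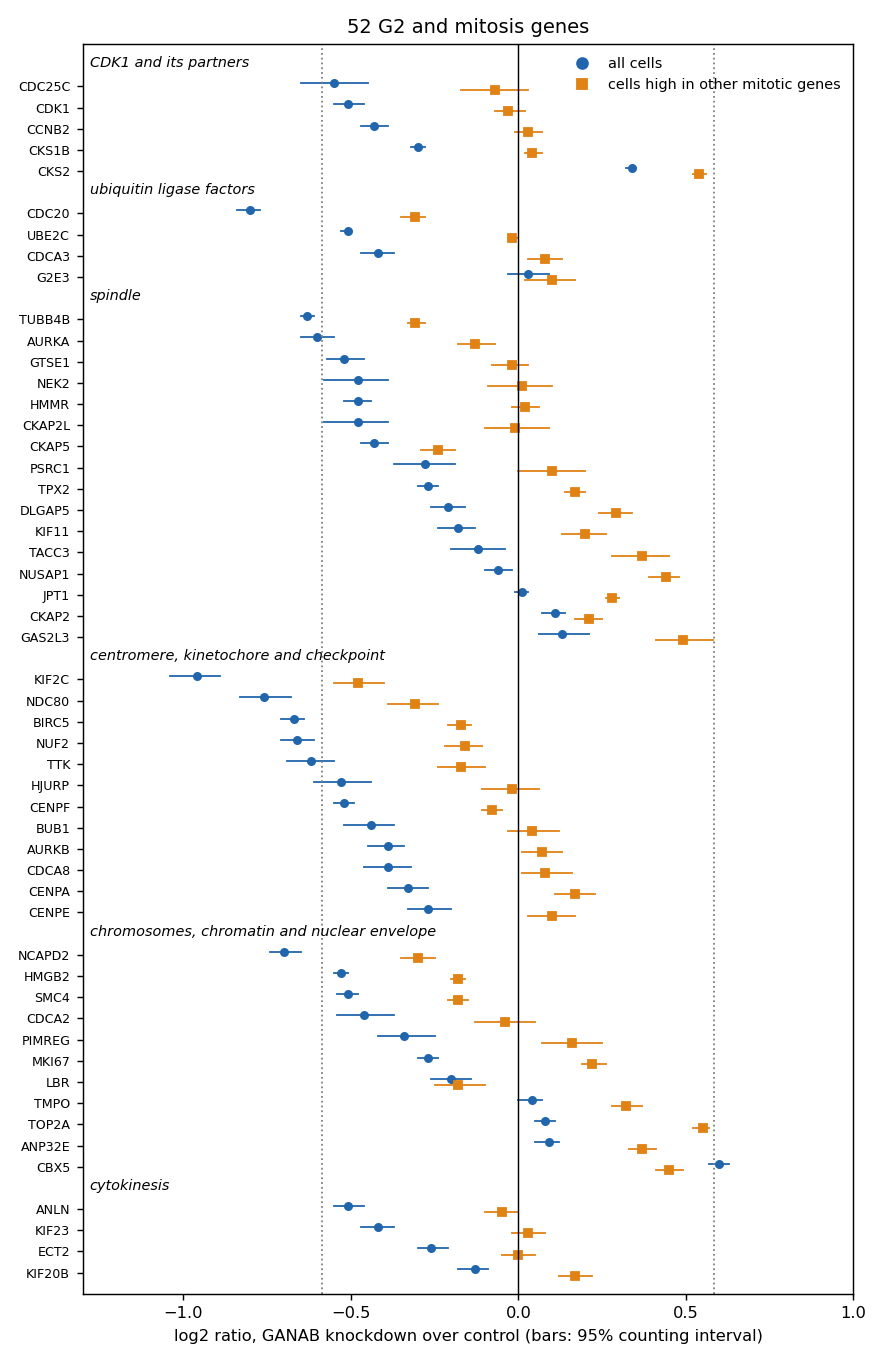
Log2 ratio of GANAB knockdown over control for each of the 52 members by role, over all cells (blue circles) and over cells high in 30 other mitotic genes (orange squares). Bars are 95% counting intervals and dotted lines mark 1.5-fold. The median moves from -0.42 over all cells to 0.03 among the cells high in the other genes.

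To set the share of cells expressing a gene apart from the level in those cells, each cell was thinned at random to 15000 UMIs. The share of cells with at least 1 UMI of a member was mostly lower in the knockdown library. The log2 ratio of shares had a median of -0.57 and ranged from -1.07 to 0.21, with 48 members below 0. By this measure 22 members were at least 1.5-fold lower, where 7.13% of all genes were, and 0 were higher, where 4.9% were. The median over all genes was -0.04. UMIs per expressing cell had a median log2 ratio of -0.00 over the members and 0.00 over all genes. No member reached 1.5-fold in either direction by that level, where 0.94% of all genes were lower and 1.38% higher. UMIs per expressing cell cannot fall below 1, so for members near 1 a lower level can show as a lower share.

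KIF2C was found in 8.91% of knockdown cells (Clopper-Pearson interval 7.85 to 10.1) and in 18.7% of control cells (17.6 to 19.9). An expressing cell held 1.57 UMIs in the knockdown and 1.68 UMIs in the control library. BIRC5 was in 24.8% of knockdown and 46.2% of control cells, at 3 UMIs per expressing cell in knockdown and 3.07 in control. CDK1 was in 19.6% of knockdown and 32.6% of control cells, at 2.31 UMIs in knockdown and 2.37 in control. For these 3 members the libraries differed more in the share than in this level, whose log2 ratios were -0.10, -0.03 and -0.04. At so few UMIs per expressing cell the level has little room to differ. HMGB2 and TUBB4B differed more in level than in share. HMGB2 was in 74.1% of knockdown and 84% of control cells, at 4.32 UMIs per expressing cell in knockdown and 6.02 in control. TUBB4B was in 67.1% of knockdown and 78.4% of control cells, at 3.26 UMIs in knockdown and 4.65 in control. CBX5 was higher in both, in 81.7% of knockdown and 70.9% of control cells, at 2.64 UMIs in knockdown and 1.93 in control. A gene found in most cells of both libraries has little room to differ in its share.

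Shares in unthinned cells, where depth differs, were 17.3% of knockdown and 32.6% of control cells for KIF2C, and 33.9% of knockdown and 57.1% of control cells for BIRC5. No cell type free of mitosis was present to give a background share, so the cells low in other mitotic genes, described next, serve as the nearest one. They held KIF2C in 0.786% of knockdown and 1.47% of control cells and BIRC5 in 4.56% of knockdown and 11.1% of control cells, at median depths before thinning of 36217 UMIs in knockdown and 36832.5 UMIs in control cells. Among barcodes with 10 to 100 UMIs, whose content was not tested, the members summed to 3370 CPM in the knockdown and 4597 CPM in the control library, with 48 of 52 below 0. The part of free RNA in the differences was not tested.

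**Figure D2:**
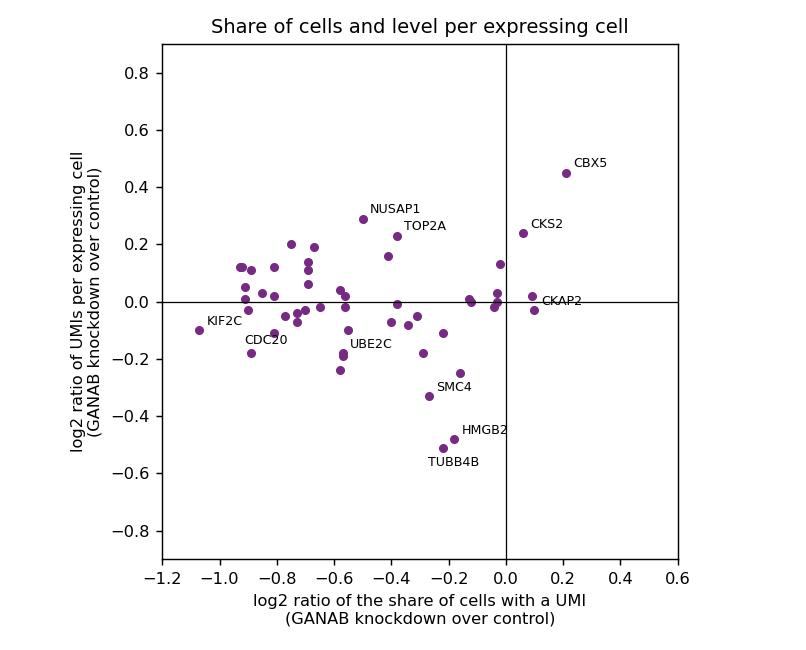
Each point is a member, with the log2 ratio of the share of thinned cells holding a UMI on the x axis and the log2 ratio of UMIs per expressing cell on the y axis, both GANAB knockdown over control. The points spread along the x axis around a median of -0.57 and lie near 0 on the y axis, with TUBB4B lowest at -0.51 and CBX5 highest at 0.45.

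Cells rich in mitotic messages were counted with genes outside the list. UMIs of 30 other mitotic genes, among them PLK1, CCNB1 and PRC1, were summed per thinned cell, and cells with 9 or more were called gate-high. Gate-high were 763 of 2672 knockdown cells, 28.6% (26.8 to 30.3), and 2145 of 4385 control cells, 48.9% (47.4 to 50.4). Over 5 other random thinnings the shares lay between 28.3% and 29.2% in knockdown and between 49% and 49.4% in control cells. The call is a range and not a cell type, and 161 knockdown and 381 control cells lay near the threshold, at 7 to 10 UMIs. Gate-high cells held 41.1% of the UMIs in the knockdown and 58.2% in the control library, since they are larger, with a median of 66713 UMIs in knockdown and 55773 in control cells.

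**Figure D3:**
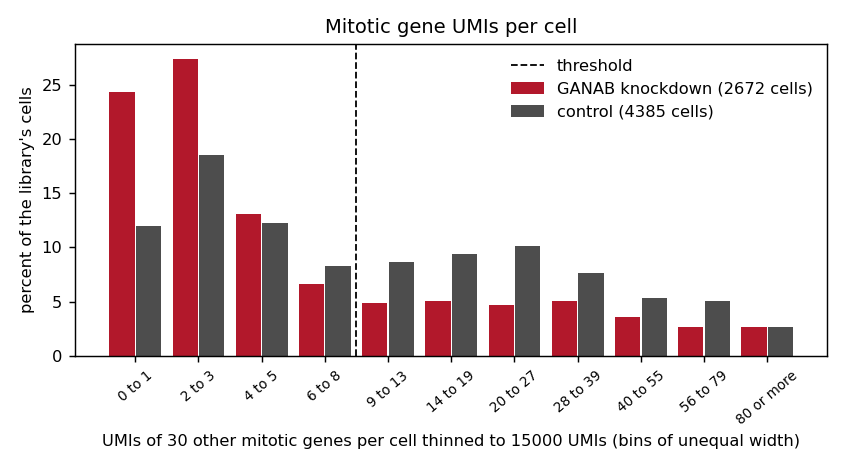
Percent of each library's cells by UMIs of 30 other mitotic genes per cell thinned to 15000 UMIs, for 2672 GANAB knockdown cells (red) and 4385 control cells (grey). The dashed line is the threshold at 9 UMIs, above which lie 28.6% of knockdown and 48.9% of control cells.

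The members followed this call closely although none took part in it. Their level in gate-high over gate-low cells was 12-fold at the median in the knockdown and 9.62-fold in the control library. It reached 2-fold in both libraries for 48 members and was highest for CDCA3, at 81.2-fold in knockdown and 48-fold in control cells. CBX5 stood at the other end, at 0.965-fold in knockdown and 1.23-fold in control cells. Its level hardly went with the gate in either library.

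Among gate-high cells the members stood at similar levels in both libraries. The median log2 ratio was 0.03, with 23 members below 0 and 29 above, and it lay between 0.01 and 0.05 over 5 other thinnings. By the size rule 0 members were lower, where 9.71% of all genes were lower, and 0 were higher, where 5.18% were. CDK1 had 107 CPM in knockdown and 109 CPM in control gate-high cells, and CCNB2 had 119 CPM in knockdown and 117 CPM in control. UBE2C had 960 CPM in knockdown and 973 CPM in control gate-high cells (-0.02). Each of these had been lower by over 0.4 on the log2 scale over all cells. The same threshold, on genes that rise with the members, was used for both libraries, which draws the members' levels together. A lower level of all these genes per cell would move cells below the threshold and count as a lower share. The gate-high values thus cannot tell a difference in share from one in level. Without cells above 100000 UMIs the median was -0.10, and 1 member, NDC80, was lower, at 25.6 CPM in knockdown and 38.4 CPM in control, where 10.9% of all genes were lower. With the threshold lowered to 4 UMIs, KIF2C was lower, where 8.93% of all genes were.

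The members still differed among themselves in these cells. KIF2C stayed lowest, at 32.9 CPM in knockdown and 45.8 CPM in control gate-high cells (-0.48, -0.55 to -0.40). NDC80, at 32.8 CPM in knockdown and 40.8 CPM in control, CDC20, at 162 CPM in knockdown and 201 CPM in control, and TUBB4B, at 349 CPM in knockdown and 432 CPM in control, each had -0.31. At the other end TOP2A had 347 CPM in knockdown and 237 CPM in control gate-high cells (0.55, 0.52 to 0.57). CKS2 had 626 CPM in knockdown and 431 CPM in control (0.54), and GAS2L3 had 32.3 CPM in knockdown and 22.9 CPM in control (0.49). CBX5 had 139 CPM in knockdown and 102 CPM in control (0.45), and NUSAP1 had 136 CPM in knockdown and 100 CPM in control (0.44). The kinetochore group had a median of -0.05 and the spindle group 0.13. All of these lie short of 1.5-fold. Scaled by the median gene ratio, CKS2 and TOP2A passed as higher, where 7.25% of all genes did, and with each cell weighted equally CKS2 did, where 5.31% of all genes did.

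Among gate-low cells only part of the members can be read, since 24 of 52 reached 10 CPM. Of these 24, 5 were lower, where 10.6% of all genes were, and 1 was higher, where 9.27% were. The 24 had a median log2 ratio of -0.19, with 13 below 0 and 11 above. Over all 52, with those under 10 CPM included, the median was -0.33, with 37 below 0. UBE2C had 86.6 CPM in knockdown and 167 CPM in control gate-low cells (-0.95), CDC20 had 6.62 CPM in knockdown and 14 CPM in control (-1.08), and BIRC5 had 4.94 CPM in knockdown and 10.8 CPM in control (-1.13). CBX5 had 144 CPM in knockdown and 83.2 CPM in control gate-low cells (0.80), a larger ratio than among gate-high cells. CKS2 had 262 CPM in knockdown and 179 CPM in control gate-low cells (0.55). CKS2 and CBX5 are among the abundant members, and all 52 together summed to 1442 CPM in knockdown and 1471 CPM in control gate-low cells, and to 7397 CPM in knockdown and 7080 CPM in control gate-high cells.

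The difference in the gate-high share and the ratios of the members can be set side by side by arithmetic. As the same threshold divides both libraries, this cannot tell a lower share from a lower level of all these genes per cell. If gate-high and gate-low cells both kept the control's mean UMIs per thinned cell and only the gate-high share were that of the knockdown library, the members' median log2 ratio would be -0.60, with a range of -0.74 to -0.05. The measured median with each thinned cell weighted equally was -0.58. If instead the control's share were kept and the levels were those of the knockdown, the median would be 0.03. Single members differed from the share-only value by 0.18 at the median and by up to 0.71. KIF2C was measured at -1.17 where the share alone gives -0.73, CDC20 at -1.07 where it gives -0.67, TOP2A at -0.15 where it gives -0.68, and CBX5 at 0.66 where it gives -0.05.

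**Figure D4:**
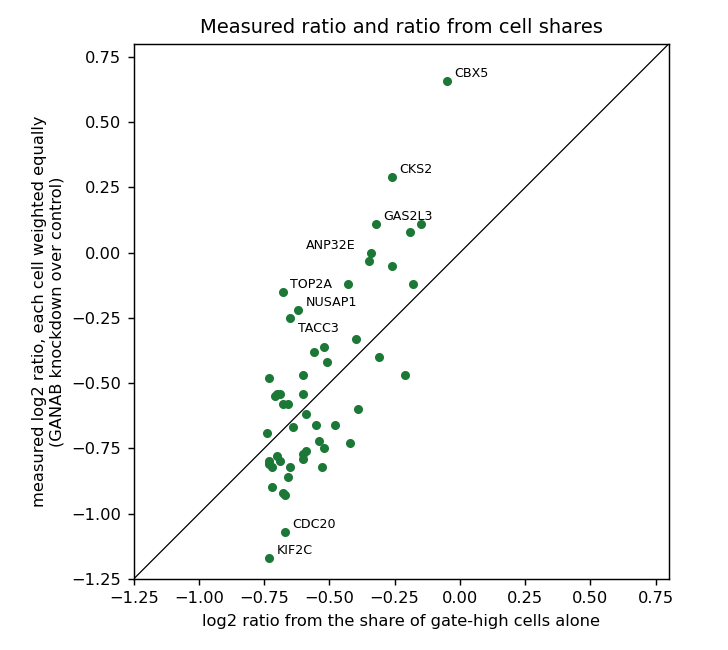
Measured log2 ratio of each member with every thinned cell weighted equally (y axis) against the log2 ratio that the share of gate-high cells alone gives (x axis), GANAB knockdown over control. The line marks equal values. KIF2C and CDC20 lie under it at -1.17 and -1.07, and TOP2A, CKS2 and CBX5 lie above it at -0.15, 0.29 and 0.66.

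Within the gate-high cells the count of other mitotic genes gives a finer scale, cut into bands after the values were seen. Cells with 9 to 19, 20 to 39 and 40 or more such UMIs made up 9.96%, 9.73% and 8.87% of knockdown cells and 18%, 17.8% and 13.1% of control cells. Each band held a smaller share of the knockdown library. Of gate-high cells, 31.1% in the knockdown and 26.8% in the control library lay in the highest band. KIF2C had 10.2, 18.4 and 75.2 CPM along the bands in knockdown cells and 15.1, 31.1 and 106 CPM in control cells, lower at each step. TOP2A had 109, 238 and 740 CPM in knockdown cells and 75.4, 190 and 511 CPM in control cells, and CKS2 had 340, 447 and 1150 CPM in knockdown cells and 257, 316 and 814 CPM in control cells, both higher at each step. Across the 3 bands 21 members kept a ratio below 0 and 12 a ratio above 0. The size rule took NCAPD2 as lower in the first band, where 9.1% of all genes were, KIF2C in the second, where 10.9% were, and no member in the third, where 10% were. It took no member as higher in any of the 3.

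**Figure D5:**
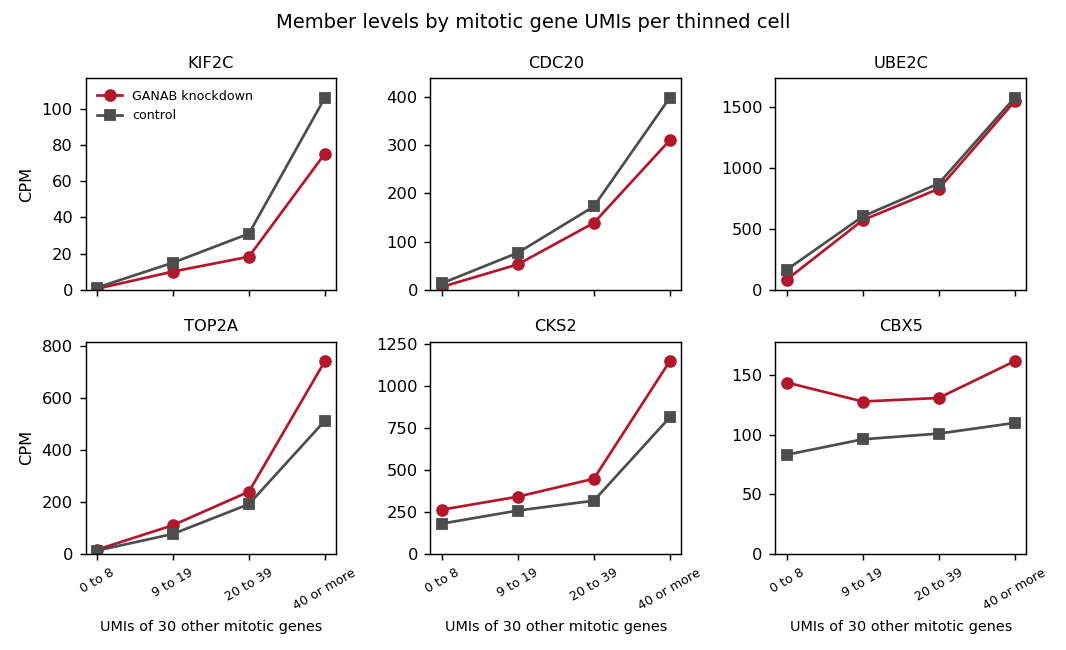
CPM of 6 members by UMIs of 30 other mitotic genes per thinned cell, for GANAB knockdown (red circles) and control (grey squares); each y axis starts at 0. UBE2C is lower in the knockdown library in the lowest band, at 86.6 CPM in knockdown and 167 CPM in control cells, and nearly level in the highest, at 1550 CPM in knockdown and 1580 CPM in control cells, while KIF2C and CDC20 lie lower and TOP2A, CKS2 and CBX5 higher in the knockdown library.

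The control library holds a minority of cells that resemble the knockdown cells in genes that mark a subclone, chosen from earlier results of these data. By SPANXB1, FAM133A and TMEM132D-AS1 against MAN1A1 and CDH2, 2558 of 2672 knockdown cells and 568 of 4385 control cells were subclone-like. Gate-high were 29.1% of subclone-like knockdown cells (27.4 to 30.9) and 49.8% of subclone-like control cells (45.6 to 54). The gap in the gate-high share was thus as wide within the subclone-like cells. All knockdown cells against subclone-like control cells gave a median member ratio of -0.45. The rule took 12 members as lower, where 6.02% of all genes were, and 0 as higher, where 4.81% were. By a stricter subclone-like rule, added after the data were seen, 22 were lower, where 5.23% of all genes were. The control cells it took were deeper, with a median of 51925.5 UMIs against 40933 in all knockdown cells. The part of depth in this count was not tested. Among gate-high cells the comparison by the main subclone-like rule gave a median of -0.01, with 0 lower, where 4.86% of all genes were, and 0 higher, where 2.88% were.

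CBX5, TOP2A and CKS2 stood nearer to level against these control cells. CBX5 had 142 CPM in knockdown cells and 123 CPM in subclone-like control cells (0.21, against 0.60 over all control cells). TOP2A had 347 CPM in knockdown and 283 CPM in subclone-like control cells when both were gate-high (0.29), and CKS2 had 626 CPM in knockdown and 474 CPM in control (0.40). KIF2C kept most of its difference, at 14 CPM in knockdown cells and 25.6 CPM in subclone-like control cells (-0.88), and at 32.9 CPM in knockdown and 42.4 CPM in control when both were gate-high (-0.36).

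Cells above 100000 UMIs weighed on the sums of the members. They were 191 knockdown cells, 7.15% of the cells with 18.6% of the UMIs, and 162 control cells, 3.69% of the cells with 9.14% of the UMIs. Gate-high were 78% of the large knockdown cells (71.5 to 83.7) and 82.1% of the large control cells (75.3 to 87.7), and they held 35.6% of all gate-high UMIs in the knockdown and 12.9% in the control library. Among cells of at most 100000 UMIs CDK1 had 29.9 CPM in knockdown and 61.6 CPM in control cells (-1.04, against -0.51 over all cells). KIF2C had 9.91 CPM in knockdown and 24.7 CPM in control cells there (-1.32), and TOP2A had 95.4 CPM in knockdown and 128 CPM in control cells (-0.42), below 0 where it was above over all cells. Doublets were not removed, and what the largest barcodes hold was not tested.

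Other genes of the cell cycle were read by lists that hold no member. Of the 30 gate genes 29 reached 10 CPM over all cells, with a median of -0.34. The size rule took 6 as lower, where 10.4% of all genes were. These 6 were CCNA2, KIF18A, KIFC1, MAD2L1, NCAPH and SKA1. SKA1, which loads onto kinetochore microtubules, had 5.67 CPM in knockdown and 15.5 CPM in control cells (-1.45), and 13.1 CPM in knockdown and 25.5 CPM in control gate-high cells. Of the S phase list 37 genes reached 10 CPM, at a median of -0.55. Of these, 17 were lower, where 10.4% of all genes were, and 0 higher, where 7.69% were. Among gate-high cells 3 of 41 were lower, where 9.71% of all genes were. The list's median there, -0.24, was below that of the members. In gate-low cells 27 genes of the list reached 10 CPM, at a median of -0.51, with 24 below 0 and 3 above. Of these 27, 13 were lower, where 10.6% of all genes were. Of the list of 14 factors of the mitotic programme 9 reached 10 CPM, with a median of -0.44, 8 below 0 and 1 above. By the size rule 3 were lower, where 10.4% of all genes were. Among gate-high cells 10 reached 10 CPM, with a median of -0.26, 6 below 0 and 4 above. There 0 were lower, where 9.71% of all genes were. Of the factors that drive the members, FOXM1 had 26.5 CPM in knockdown and 42 CPM in control cells (-0.66). In gate-high cells it had 57.3 CPM in knockdown and 67.4 CPM in control (-0.23). MYBL2 had 23.5 CPM in knockdown and 28.9 CPM in control cells, and 51.7 CPM in knockdown and 45.5 CPM in control gate-high cells (0.19). Of the list of 11 cell cycle brakes 7 genes reached 10 CPM, with a median of -0.14, 5 below 0 and 2 above. By the size rule 1 was lower, where 10.4% of all genes were. It was FBXO5, an inhibitor of the anaphase-promoting complex, at 25.5 CPM in knockdown and 38.5 CPM in control cells. The kinase inhibitor CDKN1A, or p21, had 26.9 CPM in knockdown and 33.7 CPM in control cells, and CDKN1B, or p27, had 67.8 CPM in knockdown and 48.8 CPM in control cells (0.48). GANAB itself was at 45.9 CPM in knockdown and 134 CPM in control gate-high cells, so GANAB was lower there too.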

How the data were processed

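Single-cell RNA was measured in 2 libraries made with 10x Genomics 3' v3 chemistry, with 10000 cells loaded per channel, per the labels. The deposited matrices hold raw UMI counts for 33538 genes and 6794880 barcodes per library, made with Cell Ranger 3.1.0 on GRCh38 per the submitters' processing notes. Neither the labels nor the notes say whether a mouse genome was in the reference, or how strand and shared reads were handled. Cells held at least 15000 UMIs and at most 20% mitochondrial UMIs. They held 132709954 UMIs in the knockdown and 214188781 UMIs in the control library. Doublets were not removed.

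UMIs were summed over cells and divided by the total (CPM). Ratios carry exact conditional binomial 95% intervals and shares Clopper-Pearson intervals, both for counting error only, since amplified molecules of 1 library are no replicates. For shares, levels and the gate, cells were thinned to 15000 UMIs by random draw. The threshold of 9 gate UMIs is the split that most separates low from high cells on a log scale (Otsu's rule), with both libraries weighted equally. Subclone-like cells held at least 2 UMIs of the 3 higher genes and more of these than of the 2 lower ones. Members named in the text were those past the size rule, the 10 with the highest CPM and the 2 highest of each role. CDK1 and CCNB2 were named for their promoters, and others were chosen after their values were seen, to spell out groups. The members and all lists were chosen with earlier results of these data known. Gene positions come from GENCODE release 29 and promoters from RefSeq. The code was tested on simulated data and ran on Python 3.11.15, numpy 2.4.6, scipy 1.17.1, pandas 2.3.3 and matplotlib 3.10.9. Alternatives changed the cell filters, scaling, weighting, gate, thinning, expression minimum and subclone rule.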

Additional observations from a re-analysis of the deposited data

How the results depend on the processing

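The lower gate-high share in the knockdown library kept its direction under all 16 alternatives, with a gap of -20.4 percentage points as reported, -16.6 at 1.5 times the threshold (14 UMIs) and -16 with 15 of the gate genes. Without cells above 100000 UMIs, 33 members were lower over all cells (13.1% of all genes were) at a median of -0.74, and 1 was lower among gate-high cells (10.9%) at a median of -0.10. Against subclone-like control cells the medians were then -0.79, and -0.16 when both were gate-high, and the median that the gate share alone gives was -0.70. With each cell weighted equally, 28 members were lower over all cells (11.9% of all genes were) at a median of -0.61, 1 was higher among gate-high cells (5.31% of all genes were), and the median against subclone-like control cells was -0.66. Scaled by the median gene ratio, 2 members were higher among gate-high cells (7.25% of all genes were). At a gate threshold of 4 UMIs, 1 member was lower among gate-high cells (8.93% of all genes were) at a median of -0.10, the median against subclone-like gate-high control cells was -0.15, and the gate share alone gave -0.45, while with 15 gate genes it gave -0.48. The share of cells with at least 2 UMIs had a median log2 ratio of -0.69, and UMIs per expressing cell without thinning had 0.10. Giving both libraries the control's gate-high share of UMIs, an alternative added after the data were seen, moved the median over all cells to 0.00 and the count of lower members to 0 (8.7% of all genes were lower); this is arithmetic on the same values. Causes were not tested. The stricter subclone-like rule and 5 other thinning draws, also added after the data were seen, moved no median by 0.1 or more, but the stricter rule raised the members lower against subclone-like control cells to 22, where the main rule gave 12. Of 364 single-member values under 7 alternatives, 211 stayed within their counting intervals and 11 changed sign, 6 of them without cells above 100000 UMIs. No paired analysis was possible because each group has 1 library. For the same reason no replicate could be left out, and knockdown and library cannot be told apart.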
